A study of Mus musculus with 12 samples.

Results

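The ABC transporters are the genes named Abca to Abcg on the array, which encode proteins with an ATP-binding cassette. A gene was taken when its transcript cluster, the array's unit of measurement, carried 1 gene symbol made of Abc, a subfamily letter from a to g and a number. Of the 30176 genes measured, 48 were members. They comprised 16 genes of subfamily A, 9 of B, 10 of C, 3 of D, 1 of E, 3 of F and 6 of G.

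The arrays came from C57BL/6J female mice. Each mouse received a silicone capsule under the skin at 25 days of age, and tissue was taken about 60 days later. The capsule held 5 mg of dihydrotestosterone (DHT), an androgen that cannot be converted to estrogen, in DHT-treated mice and was empty in placebo-treated mice. Ovaries and gonadal fat pads were hybridised, with 3 arrays per group in 4 groups, 12 arrays in all. Whole pieces of tissue were used, so fewer cells of a type and less RNA per cell cannot be told apart.

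ABC transporters use the energy of ATP to move lipids, sterols, drugs, peptides and metabolites across membranes. Members of subfamily A carry lipids, those of B and C include drug and metabolite pumps, most of D bring fatty acids into peroxisomes, and several of G export sterols. The members of E and F have no part that spans a membrane and act on ribosomes. In the ovary, cholesterol is the raw material for steroid hormones, and in fat the peroxisomal members supply fatty acids for oxidation.

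The promoters of 4 members are printed because the results turn on these genes and because each pair lies close together in the genome. Abcb1a and Abcb1b encode the mouse P-glycoproteins, pumps that expel drugs and steroids, and neighbour each other on chromosome 5. Abca5 and Abca8b lie in a cluster of subfamily A genes on chromosome 11 and were both higher in fat of DHT-treated mice. Each sequence runs 5′ to 3′ from 250 bases before the RefSeq start to 50 bases after it, in the GRCm38.p6 build. Capitals mark matches, on either strand, to the CCAAT box, to the GC box with the letters GGGCGG, to the E box with the letters CACGTG, or to AGAACA, which is 1 arm of the androgen response element.
Abcb1b, chr5:8797897-8798196, plus strand: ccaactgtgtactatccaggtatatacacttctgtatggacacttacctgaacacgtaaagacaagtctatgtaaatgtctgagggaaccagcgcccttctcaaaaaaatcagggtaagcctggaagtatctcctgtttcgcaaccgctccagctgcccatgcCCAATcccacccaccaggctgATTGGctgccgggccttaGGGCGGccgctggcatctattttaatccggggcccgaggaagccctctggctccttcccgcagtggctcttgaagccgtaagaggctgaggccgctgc
Abcb1a, chr5:8566841-8567140, plus strand: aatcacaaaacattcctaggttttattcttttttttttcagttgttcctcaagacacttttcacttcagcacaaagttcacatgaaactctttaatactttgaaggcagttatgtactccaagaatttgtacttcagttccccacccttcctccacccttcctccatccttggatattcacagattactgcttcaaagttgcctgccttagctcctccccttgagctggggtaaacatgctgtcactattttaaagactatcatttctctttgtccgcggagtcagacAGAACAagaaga
Abca5, chr11:110337667-110337966, minus strand: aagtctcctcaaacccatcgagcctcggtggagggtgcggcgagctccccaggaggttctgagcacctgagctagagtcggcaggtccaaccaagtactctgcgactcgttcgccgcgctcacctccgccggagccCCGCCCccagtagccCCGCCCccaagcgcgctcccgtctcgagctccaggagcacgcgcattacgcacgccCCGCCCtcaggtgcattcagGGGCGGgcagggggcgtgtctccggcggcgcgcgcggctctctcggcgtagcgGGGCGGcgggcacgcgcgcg
Abca8b, chr11:109995796-109996095, minus strand: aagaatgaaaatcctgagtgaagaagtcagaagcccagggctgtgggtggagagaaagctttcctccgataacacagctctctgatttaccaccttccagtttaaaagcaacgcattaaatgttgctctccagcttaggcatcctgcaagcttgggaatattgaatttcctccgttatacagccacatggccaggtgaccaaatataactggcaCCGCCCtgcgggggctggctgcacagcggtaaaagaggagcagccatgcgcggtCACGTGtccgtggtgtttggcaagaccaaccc

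The Abcb1b promoter held 2 CCAAT matches and 1 GGGCGG match with a GC content of 55%. The Abcb1a promoter held 1 AGAACA match with a GC content of 40.3%. Aligned end to end, 47.7% of the alignment columns of this pair were identical. The Abca5 promoter held 5 GGGCGG matches with a GC content of 72.3%, and that of Abca8b held 1 GGGCGG and 1 CACGTG match with a GC content of 51.3%. Their alignment was identical in 48.7% of columns. Promoters of 38 of the 48 members were in the RefSeq table, those of Abca6, Abcb8, Abcc1, Abcc3, Abcc6, Abcc8, Abcd2, Abcd4, Abcg1 and Abcg4 being the exceptions. The full androgen response element, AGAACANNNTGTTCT, matched in 0 of these 38 and in 0.00913% of the 32851 promoters of the table. AGAACA matched in 11 of the 38 and in 19% of all promoters, CCAAT in 15 and in 37.4%, GGGCGG in 18 and in 35.7%, and CACGTG in 6 and in 7.15%. AGAACA forms part of the full element, and no match in the printed promoters overlapped one of another motif. A match describes letters and is not evidence of binding.

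The deposited values were log2 signals, and a difference of 1 is a 2-fold change. The values of a group are given in the order of its replicates 1 to 3. Array medians were 4.35 to 4.43 in the ovary and 3.30 to 3.52 in gonadal fat, so levels were not compared between the tissues. For gonadal fat, values of chromosomes 10 to 19 stood against the wrong transcript clusters and were put back before any test. This moved the values of 23 members, among them all 5 members called in fat. Over these 23, the correlation across genes of ovary and fat means rose from 0.0494 to 0.917, against 0.981 over the other 25. The labels held for both tissues, since granulosa genes averaged 8.17 to 8.62 per array in the ovary and adipocyte genes 10.24 to 10.44 (DHT) and 9.74 to 9.85 (placebo) in fat. Ovary arrays also carried transcripts of neighbouring tissues. The mean of 5 oviduct epithelium genes was 7.47 in DHT replicate 3 and 7.81 in placebo replicate 2. It was 5.99 in DHT replicate 2 and 4.51 to 4.71 in the remaining arrays. Ovgp1, 1 of these genes, was 10.27 in DHT replicate 2 and 5.14 to 5.55 in those remaining arrays. The ovary results for called members and for those described below are also given without the pair of DHT replicate 3 and placebo replicate 2. Fits without this pair still hold DHT replicate 2 and so are not free of oviduct transcripts. Counts over subfamilies and lists rest on all 6 arrays. The smaller fit without the pair called 0.0262% of the 19118 genes tested in the ovary, against 1.26% with all 6 arrays.

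Most members gave a signal in both tissues. In all 12 arrays, 36 of the 48 were above the array median, and 9 were in none. A gene was tested when it was above the array median in at least 3 of the 6 arrays of a tissue, which left 36 members in the ovary and 37 in fat. All of these were above the median in all 6 arrays, so none passed through 1 treatment group alone. Abca12 to Abca17, Abcb5, Abcb11, Abcc2, Abcc12 and Abcg3 were tested in neither tissue. Several of them are known from other organs, such as Abca12 from skin and Abcb11, the bile salt export pump, and Abcc2, an exporter of conjugated anions, from liver. Their values ran from 1.99 to 4.72 in the ovary and from 1.51 to 3.52 in fat. Abcb4, which delivers phosphatidylcholine to bile, was tested in fat alone. In the ovary it was above the median in 2 arrays, with 4.28, 4.23 and 4.31 with DHT and 4.36, 4.40 and 4.41 with placebo in the ovary.

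In the ovaries, DHT-treated mice showed decreased expression of Abcb1b and Abca7 and increased expression of Abcg4. The fall of Abcb1b was 8.96-fold, and the others changed 1.33-fold and 1.34-fold. Of the 36 members tested, 3 (8.33%) passed the test (adjusted p no greater than 0.10), 1 higher and 2 lower, against 1.26% of the 19118 genes tested (0.544% higher and 0.717% lower). The groups did not overlap for 10 members (27.8%), 3 with DHT above placebo and 7 below, against 20% of all genes tested (6.88% and 13.1%). At an unadjusted p of at most 0.05 there were 7 members (19.4%), against 13.3% of all genes. The median log2 change was 0.02 over the members and -0.00 over all genes.

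Abcb1b encodes a P-glycoprotein that in mice is known from the adrenal gland, the ovary and the pregnant uterus. Its signal was 6.19, 6.27 and 6.37 with DHT and 10.13, 9.11 and 9.08 with placebo in the ovary. The groups lay far apart, and placebo replicate 1 was the highest. Abcb1b fell by 3.16 on the log2 scale (SE 0.28, 95% interval -3.83 to -2.50, limma adjusted p = 0.0147). Without the pair of oviduct-rich arrays it fell by 3.37 with an adjusted p of 0.206, and without DHT replicate 3 alone it fell by 3.21 with an adjusted p of 0.104.

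Genes of the corpus luteum, the gland that forms after ovulation and makes progesterone, were lower in the same arrays. These genes were listed with earlier results of these arrays known. Of 5 luteal genes tested, 4 fell (Akr1c18, Cyp11a1, Ptgfr and Star), with a median log2 change of -2.57, and Hsd3b1 changed by -0.44 (adjusted p = 0.167). The mean of the 5 was 7.42, 7.99 and 7.84 with DHT and 9.72, 11.04 and 11.43 with placebo in the ovary. Placebo replicate 1, with the highest Abcb1b signal, had the lowest luteal mean of its group. Adipocyte genes were also lower in mean, with means of 6.49, 5.98 and 6.12 against 7.14, 6.72 and 6.64, and 1 of 7, Lipe, passed the test. Single markers of other cells rose in the ovary. They were 1 of 7 endothelial genes (Vwf, 0.49, limma adjusted p = 0.0539) and 1 of 5 lymphocyte genes (Cd4, 0.47, adjusted p = 0.0962, list median 0.10). The endothelial genes were mixed, with a list median of -0.03. Pecam1 (-0.18), Kdr (-0.10), Tek (-0.07) and Cdh5 (-0.03) were lower, and Cldn5 (0.23) and Emcn (0.03) higher, without passing the test. Pericyte and smooth muscle genes had a median of -0.32, with 0 of 8 called. Of 4 theca genes tested, 1 was called lower, Cyp11a1, which is also on the luteal list. The theca list had a median of 0.15, and Cyp17a1 differed by 1.85 (limma adjusted p = 0.674). Star (-0.53) and Ptgfr (-0.49) of the luteal list were called lower in gonadal fat too. The part of these cell types in the fall of Abcb1b was not tested.

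**Figure D1:**
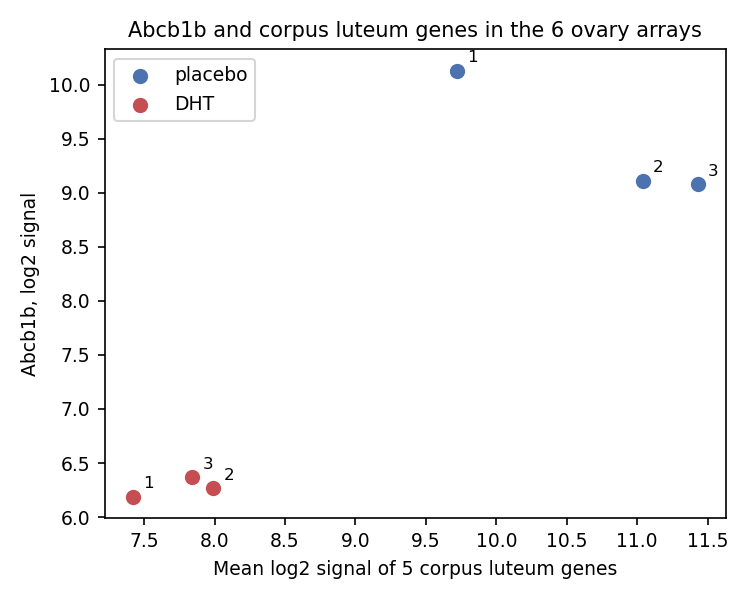
Abcb1b log2 signal (vertical axis) against the mean log2 signal of 5 corpus luteum genes (horizontal axis) in the 6 ovary arrays, with the replicate number beside each point. The DHT arrays sit at or under 6.37 and 7.99 on the 2 axes, and the placebo arrays at or above 9.08 and 9.72.

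Abcb1a, the neighbouring P-glycoprotein gene and the form known from the blood-brain barrier, was 7.67, 7.91 and 7.68 with DHT and 8.50, 8.01 and 8.24 with placebo in the ovary. All DHT values were lower, with placebo replicate 1 again the highest. The difference of -0.50 (SE 0.14) did not pass the test over all genes (adjusted p = 0.201), and without the oviduct-rich pair it was -0.58 (adjusted p = 0.445). The coding sequences of Abcb1a, Abcb1b and Abcb4 are close relatives, and how far their probes cross-hybridise is uncertain.

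Abca7, which exports phospholipids and takes part in the uptake of debris by phagocytes, was 6.05, 6.05 and 6.11 with DHT and 6.46, 6.42 and 6.58 with placebo in the ovary. The spread within a group was small and the groups did not overlap. Abca7 fell by 0.41 (SE 0.06, limma adjusted p = 0.0595). It missed the threshold whichever of the 6 arrays was omitted (adjusted p 0.121 to 0.218) and without the oviduct-rich pair (-0.47, adjusted p = 0.329).

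Abcg4, a sterol exporter known mainly from the brain, was 6.34, 6.47 and 6.43 with DHT and 6.11, 5.92 and 5.94 with placebo in the ovary. The lowest DHT value lay above the highest placebo value. Abcg4 rose by 0.42 (SE 0.07, limma adjusted p = 0.0841). Omitting 1 array ended the call in 5 cases of 6, the exception being placebo replicate 1 (adjusted p 0.0772 to 0.279), and without the oviduct-rich pair (0.38, adjusted p = 0.493).

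Abca1 passes cholesterol and phospholipid to apolipoprotein A-I, the first step of HDL formation. It was 10.03, 10.50 and 10.13 with DHT and 9.58, 9.55 and 9.77 with placebo in the ovary, again with no overlap. The difference was 0.59 (SE 0.13, 95% interval 0.27 to 0.91), with an adjusted p of 0.157, and without the oviduct-rich pair it was 0.59 with an adjusted p of 0.552. With quantile normalization the adjusted p was 0.0986, which made 2 members higher and 2 lower in place of 1 and 2, against 0.649% and 0.607% of all genes.

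**Figure D2:**
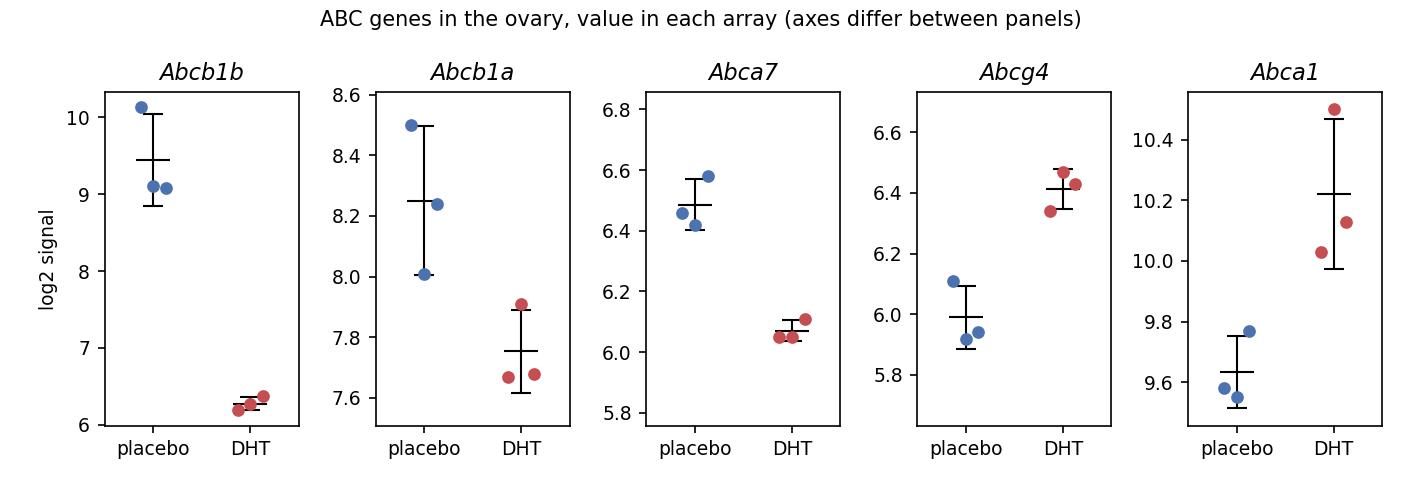
Log2 signal (vertical axis, its range differing between panels) of 5 members in placebo-treated and DHT-treated ovaries, with 1 point per array and the mean ± SD (n = 3) in black. The groups do not overlap in any panel, and Abcb1b has the widest gap, 6.37 against 9.08.

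The remaining ovarian members changed by at most 0.27 in size. Abca5, a lipid carrier of endosomes and lysosomes, was 5.71, 5.50 and 5.74 against 5.40, 5.42 and 5.32 (0.27, adjusted p = 0.221). Abcd3, which brings fatty acids into peroxisomes, was 7.87, 7.98 and 7.91 against 8.0, 8.11 and 8.05 (-0.14, adjusted p = 0.393), and mitochondrial Abcb8 differed by -0.15 (adjusted p = 0.349). For each of these 3 genes the groups did not overlap and the test was not passed. Abca6 differed by 0.25 (adjusted p = 0.382). Abcg2, the breast cancer resistance pump that marks side-population stem cells, had changes near 0 (0.01, 95% interval -0.19 to 0.20). Abcc9, the sulphonylurea receptor of potassium channels in vascular muscle, differed by 0.02 (-0.23 to 0.28). Abcg1, which works with Abca1 in cholesterol export, ranged from 6.72 to 7.43 in DHT-treated and from 6.72 to 7.30 in placebo-treated ovaries (0.20, adjusted p = 0.82). Without the oviduct-rich pair the change was 0.25 for Abca5, -0.10 for Abcd3, -0.18 for Abcb8, 0.24 for Abca6, -0.02 for Abcg2, -0.05 for Abcc9 and 0.06 for Abcg1, with adjusted p of 0.62 or more.

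By subfamily, A had 8 of its 10 tested members higher in mean in DHT-treated ovaries and a median change of 0.20, with Abca7 as the member called. In B, 5 of 6 were lower in mean, with a median of -0.12. In C the changes were small, from -0.05 to 0.22 over 8 members. C, D, E and F had 0 members called by limma and 0 at an unadjusted p of at most 0.05, the last 3 with medians of -0.05, -0.10 and -0.08. All 5 tested members of G were higher in mean, from 0.01 to 0.42, but Abcg2 (0.01), Abcg5 (0.01) and Abcg8 (0.03) were near 0. With each array centred on its median Abcg2 was -0.03. Of the 19118 genes tested in the ovary, 9252 were higher in mean. Members of a subfamily are not replicates, and these counts carry no test.

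In gonadal fat, DHT-treated mice showed increased expression of Abcd2, Abca5, Abca8b and Abcc1 and decreased expression of Abcc5. The change of Abcd2 was 2.18-fold, and the others were between 1.33-fold and 1.51-fold. Of the 37 members tested, 5 (13.5%) were called, 4 higher and 1 lower, against 3.87% of the 19251 genes tested (2.65% higher and 1.22% lower). The groups did not overlap for 8 members (21.6%), 7 above and 1 below, which was close to the 22.8% of all genes (14.5% above and 8.23% below). At an unadjusted p of at most 0.05 there were 9 members (24.3%), against 16.2% of all genes. The median log2 change was 0.08 over the members and -0.01 over all genes. With each array centred on its median, Abcd2 alone was called (1.20, adjusted p = 0.0194), 1 higher and 0 lower in place of 4 and 1, against 1.99% and 0.374% of all genes.

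Abcd2 sits in the peroxisomal membrane and imports very long-chain fatty acyl-CoA. It was 10.22, 9.75 and 9.87 with DHT and 8.76, 8.79 and 8.92 with placebo in fat. All DHT arrays lay clearly above all placebo arrays. Abcd2 rose by 1.12 (SE 0.13, 95% interval 0.82 to 1.43, limma adjusted p = 0.00752), and stayed called whichever of the 6 arrays was omitted (0.99 to 1.22). Peroxisomal Abcd3 was 7.80, 7.31 and 7.28 against 7.48, 7.25 and 7.57 (0.03, 95% interval -0.33 to 0.39). Abcd4, which releases vitamin B12 from lysosomes, differed by -0.00 (-0.20 to 0.19).

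Abca5 was 5.15, 4.89 and 4.72 with DHT and 4.47, 4.21 and 4.30 with placebo in fat. Abca8b, of the same cluster on chromosome 11, was 5.17, 4.96 and 5.04 with DHT and 4.69, 4.32 and 4.52 with placebo in fat. DHT replicate 1 was the highest array for both, and neither gene overlapped between groups. Abca5 rose by 0.60 (SE 0.13, limma adjusted p = 0.0648) and Abca8b by 0.55 (SE 0.12, adjusted p = 0.062). Leaving out 1 array ended the call of Abca5 in 4 cases of 6 (all but those without DHT replicate 3 or placebo replicate 1, adjusted p up to 0.216) and that of Abca8b in 5 of 6 (all but that without placebo replicate 1, up to 0.194).

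The other genes of this cluster did not pass the test. Abca8a, the closest relative of Abca8b, was 7.35, 6.85 and 6.77 with DHT and 6.82, 6.14 and 6.55 with placebo in fat (0.49, adjusted p = 0.294). The groups overlapped, and probes of this pair may cross-hybridise to an uncertain degree. Abca6 was 5.51, 5.66 and 5.29 against 6.27, 5.13 and 5.32 (-0.09, 95% interval -0.71 to 0.53), and Abca9 was 6.44, 6.74 and 6.39 against 7.19, 6.23 and 6.12 (0.01, -0.59 to 0.61). Placebo replicate 1 stood above its group for both. The mean of 8 pericyte and smooth muscle genes was also highest in that array (9.01, against 7.34 to 8.22 in the other 5), and its part in these values was not tested.

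Abcc1 expels glutathione conjugates, including leukotriene C4. It was 7.26, 7.10 and 6.94 with DHT and 6.66, 6.68 and 6.72 with placebo in fat, and rose by 0.42 (SE 0.10, limma adjusted p = 0.092). Abcc5, an exporter of cyclic nucleotides, was 6.51, 6.31 and 6.10 with DHT and 6.86, 6.70 and 6.96 with placebo in fat, and fell by 0.53 (SE 0.13, adjusted p = 0.0843). The groups of both genes were separate, in opposite directions. Omitting 1 array ended each call in 5 cases of 6. Abcc1 was still called without DHT replicate 3 (adjusted p otherwise up to 0.301), and Abcc5 without DHT replicate 1 (otherwise up to 0.273).

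**Figure D3:**
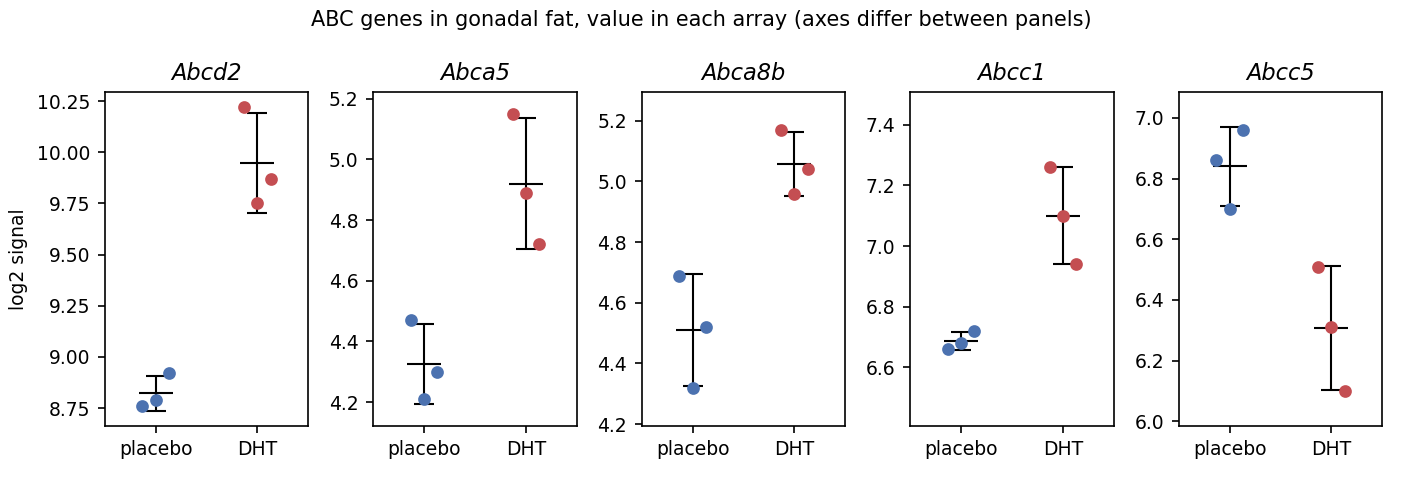
Log2 signal (vertical axis, its range differing between panels) of the 5 members called in gonadal fat, with 1 point per array and the mean ± SD (n = 3) in black. Abcd2, Abca5, Abca8b and Abcc1 are higher in all DHT arrays and Abcc5 is lower.

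Several members missed the threshold in fat. Abcc3, an exporter of glucuronides, was 5.01, 5.02 and 5.24 against 4.82, 4.85 and 4.69, with no overlap (0.30, adjusted p = 0.187). Abce1, which splits ribosomes into their subunits after translation, was 8.49, 8.13 and 7.93 against 7.84, 7.55 and 7.92 (0.42, adjusted p = 0.244). Abcf2 was 7.57, 7.54 and 7.29 against 7.17, 7.15 and 7.31 (0.26, adjusted p = 0.274). DHT replicate 1 was the highest array for Abce1 and Abcf2. Abcg1 was 7.22, 7.23 and 7.20 with DHT and 6.88, 7.24 and 6.47 with placebo in fat, a narrow group inside the range of a wide one (0.35, adjusted p = 0.363). Abca1 differed by 0.06 (95% interval -0.18 to 0.31), Abcb1a by 0.15 (-0.15 to 0.44), Abcb1b by 0.25 (-0.02 to 0.52), Abcc9 by 0.10 (-0.15 to 0.34) and Abcg2 by -0.01 (-0.29 to 0.27).

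By subfamily, A had 7 of 10 members higher in mean in DHT-treated fat, 2 of them called. Of the 19251 genes tested in fat, 9363 were higher in mean. B had 6 of 7 higher in mean, with changes of at most 0.25, and 0 called by limma or at an unadjusted p of at most 0.05. C was divided, with 4 higher and 4 lower in mean and 1 called in each direction. Abcd2 was the called member among the 3 of D. E, F and G had 0 called, with medians of 0.42, -0.02 and 0.05, and 1, 1 and 0 at an unadjusted p of at most 0.05.

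**Figure D4:**
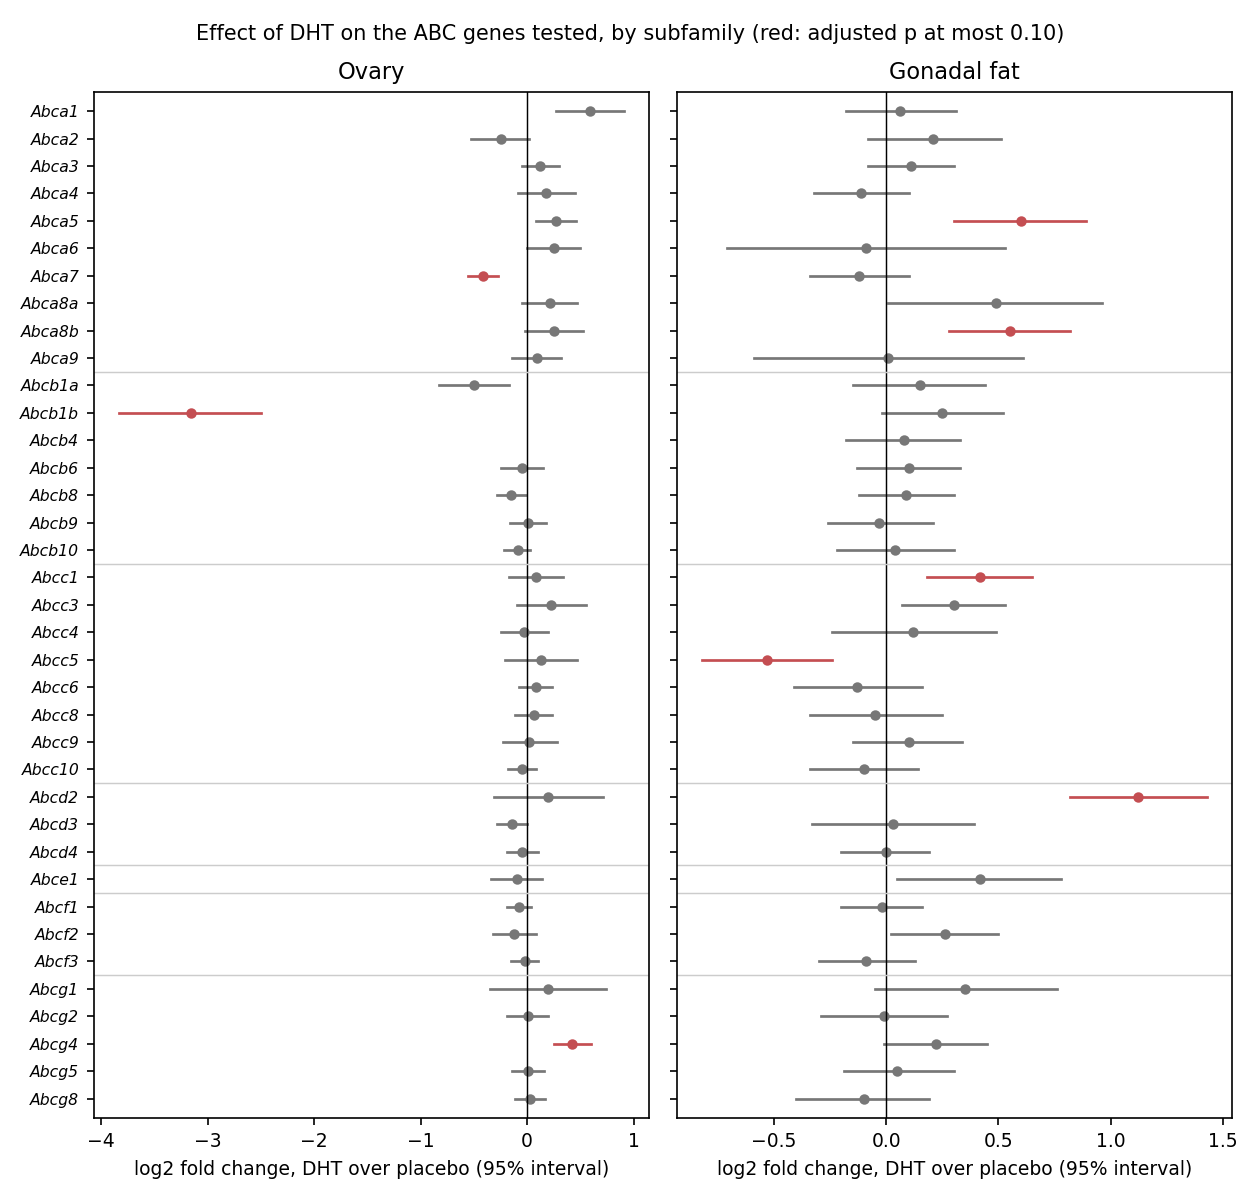
Log2 fold change of DHT over placebo (horizontal axes, their ranges differing) with its 95% interval for each member tested, in the ovary (left) and gonadal fat (right), ordered by subfamily with grey lines between subfamilies. Red marks an adjusted p of at most 0.10, which 3 of 36 members reached in the ovary and 5 of 37 in fat.

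Adipocyte genes were higher in the same DHT arrays. The mean of 7 was 10.44, 10.26 and 10.24 with DHT and 9.74, 9.74 and 9.85 with placebo in fat, with a median change of 0.38, and Lep and Lipe passed the test. Of 7 endothelial genes 2 rose, Cdh5 (0.40) and Cldn5 (0.95), with a list median of 0.12, while Vwf (-0.28) and Kdr (-0.16) were lower without passing the test. The endothelial mean was 7.90, 8.04 and 8.02 with DHT and 7.77, 7.88 and 7.75 with placebo. Of 6 mesothelial genes 1, Wt1, fell by 0.73, and the list median was -0.52. The mean of these 6 mesothelial genes was 6.34, 6.02 and 5.64 against 6.75, 6.45 and 6.38, lower in all DHT arrays. Pericyte and smooth muscle genes had a median of -0.61, with 0 of 8 called. Their mean was 7.34, 8.22 and 7.87 with DHT and 9.01, 7.80 and 8.15 with placebo, so the groups overlapped. Macrophage genes averaged 7.04, 7.09 and 6.83 against 6.96, 6.55 and 6.28, with 0 of 8 called by limma and 3 at an unadjusted p of at most 0.05. The part of any of these cell types in the changes of the members was not tested.

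Genes that work with ABC transporters were counted by list in each tissue. For comparison, 1.26% of all genes tested were called in the ovary and 3.87% in fat. At an unadjusted limma p of at most 0.05 the shares of all genes were 13.3% and 16.2%. Of 11 tested genes of cholesterol efflux and its regulators, 0 passed the limma test in either tissue, with median changes of 0.03 in the ovary and -0.02 in fat, and 4 and 1 had an unadjusted p of at most 0.05. At an adjusted p of 0.15, ovarian Scarb1, the receptor that takes up HDL cholesterol, was closest, with 8.35, 8.32 and 8.09 with DHT and 9.03, 9.81 and 10.47 with placebo in the ovary. Of the peroxisomal genes, Scp2, a thiolase and sterol carrier, fell by 0.50 in the ovary (adjusted p = 0.0607; 1 of 13). Ppara, the nuclear receptor that turns on peroxisomal oxidation, rose by 0.76 in fat (limma adjusted p = 0.0225, 1 of 15). The median change of the peroxisomal list was -0.08 in the ovary and 0.02 in fat. At an unadjusted p of at most 0.05 there were 4 of these genes in each tissue. In fat those other than Ppara were lower, namely Acaa1a (-0.26), Acaa1b (-0.33) and Acot4 (-0.36), and were not called.

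Of the 10 genes of haem synthesis and iron-sulphur clusters, Alas1, the rate-limiting enzyme of haem synthesis, rose by 0.68 in fat (adjusted p = 0.0614), from 8.15, 8.08 and 8.34 to 9.17, 8.72 and 8.71. In the ovary 0 of the 10 were called, and 2 had an unadjusted p of at most 0.05. In fat 5 had such a p, and the list median was 0.23. Besides Alas1 these were Alad (0.31), Cpox (0.30) and Iscu (0.25), which were higher, and Slc25a37 (-0.24), which was lower. Peptide loading (10 genes), ribosome recycling (4), the channel pores Kcnj8 and Kcnj11, and xenobiotic receptors with glutathione genes (6 in the ovary, 8 in fat) had 0 called in either tissue. At an unadjusted p of at most 0.05 these lists had 2, 0, 0 and 1 in the ovary and 2, 1, 0 and 0 in fat. Cftr, Tap1 and Tap2 are ABC proteins with other names. Tap1 and Tap2, the peptide pumps of antigen presentation, differed by -0.11 and -0.06 in the ovary and by -0.09 and -0.23 in fat, and neither was called, with 0 and 1 of them at an unadjusted p of at most 0.05. Cftr, a chloride channel, was 5.70 in DHT replicate 3 and 6.27 in placebo replicate 2, the oviduct-rich pair, and at most 4.35 in the other ovary arrays.

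The effect of DHT differed between the tissues for Abcb1b, Abcd2 and Abcc5. Of the 36 members tested in both tissues, 3 (8.33%) were called, 2 with a higher change in fat than in the ovary and 1 with a lower one, against 6.14% of 18080 genes (4.63% and 1.51%). The share of members called was near that of all genes. At an unadjusted p of at most 0.05 there were 11 of the 36, a larger share than the 19.6% of all genes. Abcb1b fell by 3.16 in the ovary and differed by 0.25 in fat, a difference of 3.41 (SE 0.31, limma adjusted p = 0.000779). Without the oviduct-rich pair it was 3.62 (adjusted p = 0.00226).

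Abcd2 rose by 1.12 in fat, and in the ovary it was 7.34, 6.88 and 6.65 against 7.04, 6.79 and 6.46 (0.20, adjusted p = 0.798). The difference was 0.93 (SE 0.26, adjusted p = 0.0821). Abcc5 fell by 0.53 in fat, and in the ovary it was 7.38, 7.71 and 7.27 against 7.49, 7.13 and 7.37 (0.13, adjusted p = 0.801). The difference was -0.66 (SE 0.20, adjusted p = 0.0995). Each of these 2 calls was lost on omitting 1 array in 9 cases of 12, and neither was made without the oviduct-rich pair.

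With ovary and fat arrays of the same number paired, 7 of 36 members (19.4%) were called in place of 3, 5 higher and 2 lower, against 12.4% of all genes in the same fit (9.18% and 3.19%). Abcb1a (0.64, adjusted p = 0.0531), Abcf2 (0.38, 0.0781) and Abce1 (0.52, 0.0989) joined those with a higher change in fat, and Abca1 (-0.52, 0.0834) joined the lower. Abcb1b (3e-04), Abcd2 (0.0386) and Abcc5 (0.0475) kept their calls. The split of the calls also moved with the scaling. With arrays centred on their medians, 4 were higher (Abca7, Abcb1a, Abcb1b and Abcd2) and 0 lower, against 7.4% and 0.868% of all genes, and with quantile normalization 1 was higher (Abcb1b) and 2 lower (Abca1 and Abcc5), against 3.27% and 2.01%. Abca5 and Abca8b, called in fat alone, had differences of 0.32 (adjusted p = 0.29) and 0.30 (0.354), and the difference of Abca7, called in the ovary alone, was 0.30 (0.172).

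**Figure D5:**
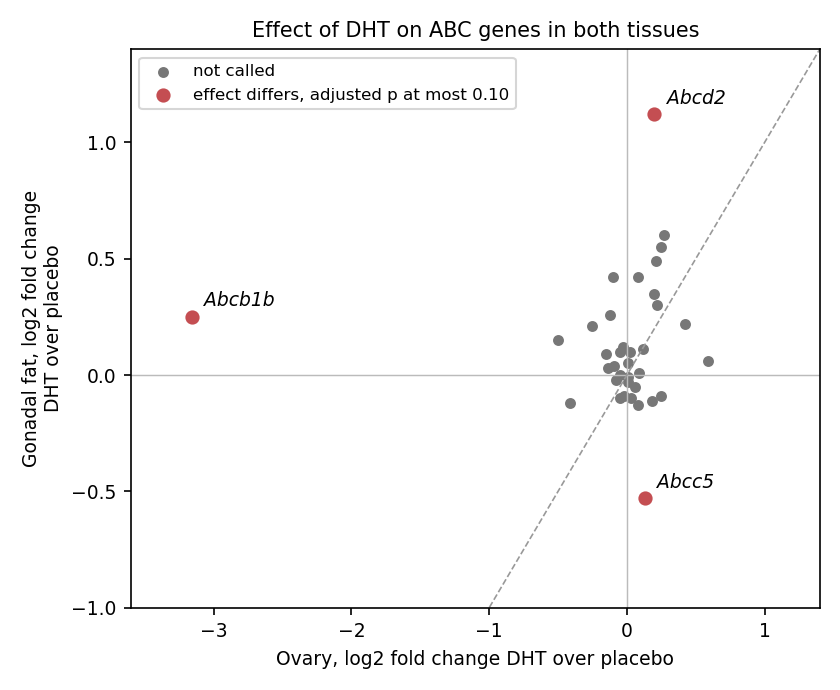
Log2 fold change of DHT over placebo in the ovary (horizontal axis) and in gonadal fat (vertical axis, on a wider scale) for the 36 members tested in both tissues, with a dashed line where the effects are equal. The 3 members in red passed the test for a difference between tissues. Abcb1b lies farthest from the line, at -3.16 and 0.25.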

How the data were processed

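Total RNA of ovaries and gonadal fat pads was hybridised to Affymetrix Mouse Transcriptome Array 1.0. The authors deposited 1 log2 signal per transcript cluster and array (0.698 to 13.2). The submitters' processing notes name MAS5; its settings, further normalization and the genome build are not given in the sources used here.

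Of 65929 clusters, 30638 carried 1 gene symbol, 2176 several and 33115 none; of several rows of a gene, that with the highest mean was kept. In the fat columns, 26501 clusters (40.2%) were displaced by sorting of their names. Re-pairing raised the correlation across clusters of ovary and fat means from 0.0139 to 0.946 (0.943 over the others).

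Each tissue was fitted with limma 3.58.1 in R 4.3.3 (lmFit, eBayes, 3 against 3 arrays), and the difference between tissues in 1 fit of 12 arrays. Genes above the array median in at least 3 of 6 arrays were tested, with Benjamini-Hochberg adjustment over all of them and calls at an adjusted p of at most 0.10. P-values measure the spread between arrays, 3 per group, which limits the precision. An exact permutation test of 3 against 3 cannot go below 0.10 and was not used.

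Ovary and fat arrays of the same number deviated together (r = 0.139, 0.156, 0.192, 0.114, 0.110 and 0.128 over genes). The numbers were therefore taken to pair the tissues in an alternative fit. The main fit of the difference between tissues held no pairing, and the calls given for it ignore any shared animal. This rests on the data, since the labels do not state a shared animal.

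Members, lists and tests were chosen with earlier results of these data known. Named genes were those called, the 8 members of smallest p in each tissue, 8 analysed members of known function (Abca1, Abcg1, Abcd2, Abcd3, Abcb1a, Abcb1b, Abcg2 and Abcc9) and called partners; Abca8a, Abca9, Abcb4, Abcd4, Scarb1, Tap1, Tap2 and Cftr were added after their values were seen. In data simulated on the ovary (19118 genes) and fat (19251 genes), 90% and 85% of 2-fold changes were recovered. False calls were 11.5% and 10.6%. The simulated noise was independent between genes and arrays. Real arrays shared deviations, with r = 0.742 in the ovary and 0.608 in fat between DHT replicate 3 and placebo replicate 2. The simulated shares may therefore not hold for the real arrays. Within a tissue, the called members other than Abcb1b and Abcd2 changed by less than 2-fold, and recovery at that size was not tested.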

Additional observations from a re-analysis of the deposited data

Results flagged for a closer look

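The effect of DHT differed between the tissues, by the test of the difference itself in the fit without pairing, for 3 of the 36 members tested in both. The difference, fat minus ovary on the log2 scale, was 3.41 for Abcb1b (limma adjusted p = 0.000779), 0.93 for Abcd2 (0.0821) and -0.66 for Abcc5 (0.0995).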

How the results depend on the processing

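Results for single members kept their direction and side of the threshold in 924 of the comparisons with an alternative, lost the call in 89, gained it in 17 and changed sign in 44. This tally pools members called and not called, and a stricter threshold cannot change those not called. It also holds the deposited fat order, in which displaced members carry values of other clusters. Apart from fits leaving out 1 array, ovarian calls held in 9 of 11 alternatives for Abcb1b, 7 for Abca7 and 6 for Abcg4. Calls in fat held in 10 of 11 for Abcd2, 6 for Abcc5 and 4 for Abcc1. They held in 6 of 10 for Abca8b and 5 of 10 for Abca5. The cause of the changes below was not tested unless an alternative uses fewer arrays or rows.

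In the ovary (1 higher, 2 lower), quantile normalization and 1 fit of all 12 arrays gave 2 higher; no filter gave 0 higher; an adjusted p of 0.05 and the methods' criteria (2-fold, unadjusted p of at most 0.01) gave 0 higher and 1 lower; and the replicate block, and leaving out the oviduct-rich pair, gave 0 and 0. Over all genes, the replicate block called 0.0157% and the fit without that pair 0.0262%, against 1.26% in the main fit. Under the replicate block the limma adjusted p was 0.105 for Abcb1b, 0.207 for Abca7 and 0.284 for Abcg4. Leaving out 1 array gave 0 to 1 higher and 0 to 1 lower.

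In fat (4 higher, 1 lower), quantile normalization and the filter at the 75th percentile gave 2 higher. Median centring, an adjusted p of 0.05 and the methods' criteria gave 1 higher and 0 lower. No filter gave 3 higher (Abca5, Abca8b and Abcd2) and 0 lower, with a limma adjusted p of 0.116 for Abcc1 and for Abcc5. The deposited row order, and undisplaced rows alone, gave 0 and 0. Neither could call the same members. Under the deposited order their names carry values of other transcript clusters, and the undisplaced rows leave out every member called in fat. Leaving out 1 array gave 1 to 3 higher and 0 to 1 lower. The replicate block kept Abcd2, Abca5, Abca8b and Abcc5, added Abca8a and lost Abcc1 (adjusted p = 0.101). Replicates of the same number did not deviate together between treatments (r = 0.330, -0.245 and -0.475 in the ovary; 0.268, -0.198 and -0.186 in fat), so this block is a number alone.

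For the difference between tissues (2 higher, 1 lower), quantile normalization gave 1 higher and 2 lower, median centring 4 and 0, the filter at the 75th percentile 2 lower, the replicate block of paired tissues 5 and 2, and no filter, an adjusted p of 0.05, the deposited order, undisplaced rows and leaving out the oviduct-rich pair 1 and 0 each. Without the oviduct-rich pair 1.81% of all genes were called, against 6.14% in the main fit. The undisplaced rows leave out Abcd2 and Abcc5, so neither could be called there. Leaving out 1 array gave 1 to 5 higher (5 without fat DHT replicate 3) and 0 to 1 lower.

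Sign changes were of members not called, apart from those under the deposited fat order. Under that order the names of these members carry values of other transcript clusters, so the values are not measurements of the members. There Abca8b was -0.09, Abcc1 -0.05, Abcc3 -0.04 and Abcg1 -0.16 in fat. The difference between tissues was -0.15 for Abca5, -0.35 for Abca8b, -0.13 for Abcc1, -0.12 for Abcd2, -0.27 for Abcc3 and -0.36 for Abcg1. With median centring, Abcg2 was -0.03 and Abcc9 -0.02 in the ovary, and Abcg2 0.07 in fat and 0.10 for the difference. With quantile normalization, Abca1 was -0.01, Abcd3 -0.08 and Abcc9 -0.02 in fat, and Abcc9 -0.08 for the difference. Without the oviduct-rich pair, Abcg2 was -0.02 and Abcc9 -0.05 in the ovary, and Abcg2 0.01 for the difference. Leaving out 1 array gave, in the ovary, Abcg2 -0.03, -0.04 and -0.01 (range -0.04 to 0.08) and Abcc9 -0.02, -0.03 and -0.02. In fat it gave Abca1 -0.02, Abca6 0.01 and 0.26 (range -0.31 to 0.26), Abcd3 -0.14 and -0.06, and Abcg2 0.12 and 0.03. For the difference it gave Abca6 0.01 (range -0.56 to 0.01), Abcc3 -0.05 (to 0.17), Abcg1 -0.07 and -0.04 (to 0.35), Abcg2 0.02, 0.04, 0.01, 0.11 and 0.03, and Abcc9 -0.03 (to 0.15).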
